A study of Mus musculus with 20 samples.

Results

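Eosinophils sorted from colonic tumors were compared with eosinophils sorted from naive colon, gene by gene. The comparison holds 9 of the 20 samples of the series, chosen by their labels: 7 tumor libraries and 2 naive libraries, all from C57BL/6 mice. The naive mice are the controls. Tumor-bearing mice are labelled CAC. Cells were released from the colon by enzymatic digestion and isolated by flow cytometry, and total RNA was extracted with Trizol. RNA was read with CEL-Seq, which tags the 3′ end of polyadenylated transcripts, in 3 technical replicates per sample with different primer pools. The sorting markers, the age of the mice, the number of animals behind a library and whether animals were pooled were not stated in the labels. Nor do the labels say that the libraries came from separate animals, so p-values measure the spread between these samples, which may be technical.

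Eosinophils are granulocytes that mature in the bone marrow under interleukin-5, enter tissue along eotaxin gradients read by the receptor Ccr3, and live in the healthy gut wall for days. They carry toxic granule proteins that are made early in development and stored, and they can release cytokines, lipid mediators, proteases and oxidants. Siglecf, an inhibitory lectin, together with Ccr3 and the interleukin-5 receptor chain Il5ra, is a common way to recognise them in mice.

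The naive libraries held 7469714 and 4452513 recovered reads, and the tumor libraries held 1978466 (library 6) to 8520874 (library 2). Mitochondrially encoded transcripts took 17.9 and 24.5% of reads in the naive libraries and 15.2 to 35.2% in tumors, with tumor libraries 2 and 3 at 34.9 and 35.2% (exact permutation p = 0.833, two-sided, where 0.0556 is the smallest p that 9 libraries allow). Over genes, the naive libraries correlated with each other at a Pearson r of 0.868 on the log2 scale, the 21 pairs of tumor libraries at 0.797 to 0.925, and the 14 mixed pairs at 0.764 to 0.864. These correlations are across genes, which are not independent replicates.

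The label was checked against the markers of its cell type. Siglecf had 872 and 2312 normalised reads in the naive libraries and 232 to 611 (median 427) in the tumor libraries. Ccr3 had 2613 and 4154 in naive and 648 to 1519 (median 1283) in tumor libraries, and Il5ra had 339.9 and 607 in naive and 69.2 to 211 (median 130.0) in tumor libraries. All 3 markers were present in every library, and for each of them the 7 tumor libraries lay below both naive libraries. In all, 0 of 15 tested members rose and 5 fell (median log2 change −1.13, with 6, 0 and 3 called without naive library 1, without naive library 2 and by limma-voom) of the eosinophil marker list, and Clec4a4 had no read in any library. Over all genes tested, 2.42% were called higher and 2.21% lower. Of the 15, 6 had a log2 change above 0. Summed over the list the level was 3323 and 4124 CPM (counts scaled to a common library total) in naive libraries and 1252 to 10745 in tumors (exact permutation p = 0.556). Tumor library 4 had the highest sum, and there the granule gene Prg2 alone had 32323 of the 45693 normalised reads of the list. The sum thus rests heavily on that gene in that library. The 5 that fell were Siglecf (−1.89 ± 0.42, log2 change ± SE throughout), Ccr3 (−1.52 ± 0.36, adjusted p = 0.0307), Il5ra (−1.82 ± 0.42, adjusted p = 0.03), the interleukin-33 receptor Il1rl1 (−2.24 ± 0.33, adjusted p = 0.00351) and Adgre1, which encodes F4/80 (−2.202 ± 0.396, adjusted p = 0.00963). In a sort, fewer cells of a type and less RNA per cell cannot be told apart. Beside each group of genes below, log2 changes in brackets are those of the fit named. With naive library 1 left out, the log2 changes of Adgre1 and Siglecf moved to −2.85 and −2.59. In the fit without naive library 2, Il1rl1, Adgre1, Siglecf, Il5ra and Ccr3 (−1.79, −1.55, −1.19, −1.403 and −1.18) were not called (adjusted p = 0.0696 to 0.402). Likewise not called were Ccr3 without tumor library 1 (−1.53) and Il5ra without tumor library 1 (−1.81), with adjusted p = 0.0532 to 0.0535. By limma-voom Siglecf and Ccr3 were not called (adjusted p = 0.0519 to 0.0625).

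Genes of other cell types were read in both groups. Summed over 16 neutrophil markers the level was 6832 and 11801 CPM in the naive libraries and 5277 to 15547 in tumors (exact permutation p = 0.833). Most of that sum in every library was the gene Retnlg, so it says little on the other markers. The 15 macrophage markers summed to 499 and 338 CPM in naive and 709 to 1373 in tumor libraries, which did not overlap (exact permutation p = 0.0556, the smallest possible). Cd163, Fcgr1, Mertk and Folr2, which mark macrophages, did not pass the filter on low values. The 16 epithelial markers summed to 2935 and 1813 CPM in naive libraries, to 5800.2, 5876 and 5968 in tumor libraries 3, 2 and 1, and to 2031 to 3069 in the other 4 tumor libraries (exact permutation p = 0.278). The B and plasma cell sum was 4475 and 7541 CPM in naive and 7207 to 17563 in tumor libraries (exact permutation p = 0.111). Igkc, the most abundant gene of that list, had 23343 and 17874 in naive and 22191 to 57039 (median 34671) in tumor libraries (log2 change 0.81, not called). The T and NK cell sum stayed at 111 CPM or below in all 9 libraries, and Ncr1 had no read. The collagen gene Col3a1 had 2628 and 2036 in naive and 539 to 2722 (median 998) in tumor libraries (log2 change −0.89, not called). The hemoglobin gene Hbb-bs had 5774 and 3135 in naive and 1271 to 4128 (median 2606) in tumor libraries (log2 change −0.74, not called).

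Of 50600 entries in the table, 12984 genes reached 10 normalised reads in at least 2 libraries and were tested with limma. Of these, 601 (4.63%) had an adjusted p under 0.05 and are referred to as called, 314 of them higher (2.42%) and 287 lower (2.21%) in tumor eosinophils. An unadjusted p under 0.05 was reached by 2557 genes. The median log2 change over all genes tested was 0.01. For 598 of the called genes the tumor values were all above or all below both naive values, which held for 2219 genes in all (17.1% of those tested). Where a called gene below is said to show no overlap, this describes it and adds no support to the call.

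Genes that rose and genes that fell differed in level and in size of change, but the filter on low values did not treat the directions alike. A gene read only in tumors could pass it through any 2 of the 7 tumor libraries. A gene read only in naive colon had to reach 10 normalised reads in both naive libraries. The part of this filter in the levels and sizes of change below was not tested. The median gene called higher went from a mean of 16.2 normalised reads in the naive libraries to 108 in tumors, a median log2 change of 2.76. The median gene called lower went from 558 to 179, a median log2 change of −1.62. Changes over 4-fold were seen in 231 genes called higher and 68 called lower, and changes over 16-fold in 51 and 7. Among the 25% of genes with the lowest mean level 35 were called higher and 7 lower, and among the 25% with the highest mean level 118 and 197. The count of genes called higher depended on the test: edgeR on the recovered reads called 209 higher and 396 lower (605 in all), and limma-voom with quality weights called 43 higher and 184 lower.

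**Figure D1:**
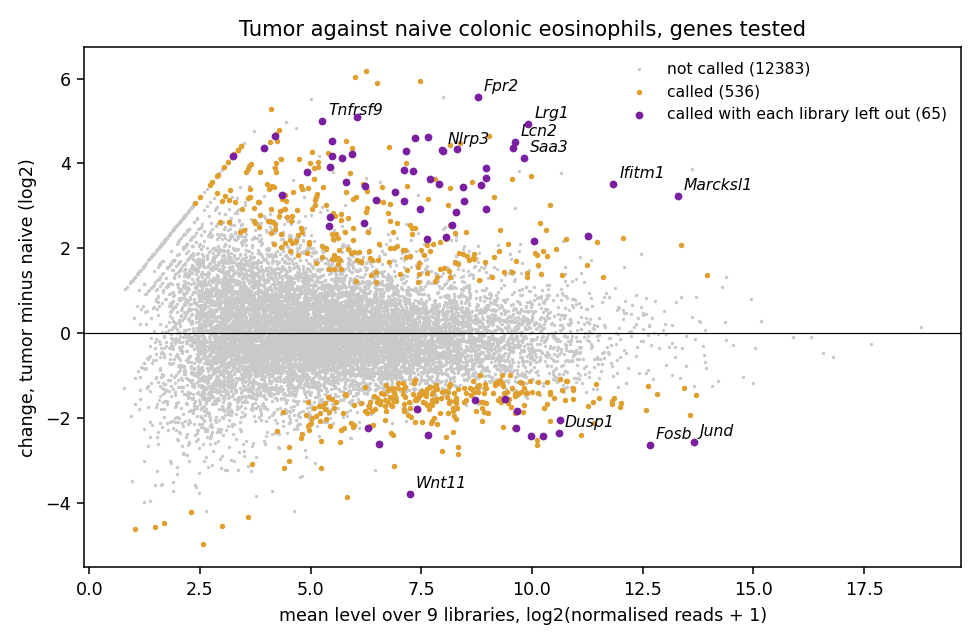
Log2 change, tumor minus naive, against the mean level over the 9 libraries for every gene tested. The 601 called genes are coloured, and the 65 of them that were called with each library left out are the darker points, 50 above and 15 below the line at 0.

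With 2 naive libraries, each of them weighed heavily on these counts. Without naive library 1, 953 genes were called (554 higher, 399 lower), and without naive library 2, 93 were called (72 higher, 21 lower). In those fits the remaining naive library has no replicate and is assumed to vary as the tumor libraries do. Leaving out 1 tumor library at a time gave 406 to 569 called genes. Without tumor library 1, the lowest of these, 185 genes fell in place of 287. Naive library 2 was the one farther from the tumor mean for 64.2% of the called genes and for 62.1% of all genes tested.

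**Figure D2:**
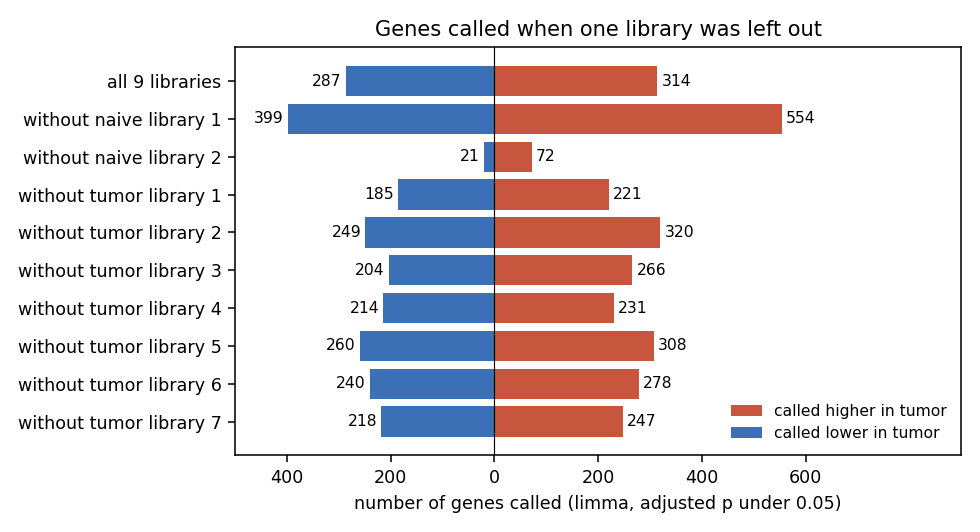
Number of genes called higher (right) and lower (left) by limma with all 9 libraries and with each library left out in turn. The bar without naive library 2 is the shortest, at 72 higher and 21 lower.

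The rest of the account starts from the 65 genes (0.501% of those tested) that were called in the same direction with each of the 9 libraries left out in turn, 50 higher (0.385%) and 15 lower (0.116%). All 65 kept the tumor and naive libraries apart without overlap. So did 598 of the 601 called genes, so this follows from the choice of genes. The 50 that rose had a median log2 change of 3.72 and went from a median of 24.0 to 333 normalised reads. For the 15 that fell the median size was 2.36 on the log2 scale, from 2193 to 568. The limit from the filter on low values given above holds for these levels and sizes too. The choice of genes tested in the reduced fits matters at this edge. With the 12984 genes kept in every fit, 61 of the 65 were called throughout. The 4 that were not were Krt14 without naive library 1 (adjusted p = 0.052) and Wnt11, Cbfa2t3 and Gas7 without naive library 2 (adjusted p = 0.0518). With genes kept that reached 10 in 1 library where a naive library was left out (the looser filter below, chosen after seeing the data), 45 were called throughout (39 higher, 6 lower).

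Surface receptors were among the largest rises that held in this way. Fpr2, a formyl peptide receptor that detects peptides of bacteria and damaged mitochondria (chromosome 17, 17887824 to 17893952, GRCm38), had 10.4 and 41.1 normalised reads in the naive libraries and 302 to 2060.2 (median 1858) in the tumor libraries. Its log2 change was 5.56 ± 0.76 (adjusted p = 0.00271). Tumor libraries 2 and 3 had the lowest values, still several-fold above both naive libraries. Tnfrsf9 (4-1BB), a costimulatory receptor of the TNF receptor family (chromosome 4, 150914562 to 150946102), had 5.8 and 0 in naive and 59.8 to 155 (median 77.7) in tumor libraries and changed by 4.99 ± 0.603 (adjusted p = 0.00153). Jaml, an adhesion receptor of leukocytes that binds a partner on epithelial cells (chromosome 9, 45079183 to 45108534), had 1.16 and 0 in naive and 20.6 to 58.8 (median 27.9) in tumor libraries. With 2 reads in the naive libraries together, the ratio of rates was 37.8 (95% exact counting interval 10.4 to 314, which covers counting error only), and the adjusted p was 0.00185. Tnfrsf9 and Jaml were at 0 in naive library 2 and were read in every tumor library. Scimp, a membrane adaptor for pattern recognition receptors (chromosome 11, 70790932 to 70812586), had 0 and 1.21 in naive and 24.1 to 63.5 (median 29.7) in tumor libraries, with 1 naive read, a ratio of 92.5 (95% exact counting interval 16.5 to 3665) and an adjusted p of 0.00153. Arl5c, a small GTPase of the ADP-ribosylation factor family (chromosome 11, 97989578 to 97996181), had 0 and 16.9 in naive and 98.4 to 226 (median 147) in tumor libraries and changed by 5.1 ± 0.77 (adjusted p = 0.00378). When naive library 1 was left out, the log2 changes of Fpr2, Arl5c and Tnfrsf9 moved to 4.62, 3.02 and 6.38. Leaving naive library 2 out, the log2 changes of Fpr2, Arl5c and Tnfrsf9 moved to 6.499, 7.18 and 3.61. Without tumor libraries 2 and 3 together, Fpr2 moved to 6.198. Under limma-voom Fpr2, Arl5c, Tnfrsf9, Scimp and Jaml were not called (adjusted p = 0.0546 to 0.297).

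Antimicrobial proteins, other secreted proteins and arginine enzymes were also among the leading rises. Ltf, the iron-binding protein lactoferrin (chromosome 9, 111019271 to 111042767), had 8.7 and 27.8 normalised reads in the naive libraries and 137 to 787 (median 582) in the tumor libraries, a change of 4.62 ± 0.65. Lcn2, which binds bacterial iron carriers, had 46.99 and 97.8 in naive and 609 to 2486 (median 1779.8) in tumor libraries (4.5 ± 0.47). S100a9, a calprotectin subunit, had 49.9 and 100.2 in naive and 449 to 2565 (median 2235) in tumor libraries (4.37 ± 0.64). Wfdc17, a small protein with a WAP domain, had 17.98 and 48.3 in naive and 151 to 1142 (median 848) in tumor libraries, a change of 4.33 ± 0.68 (adjusted p = 0.00477). S100a8, the other calprotectin subunit, had 17.4 and 36.2 in naive and 135 to 1092 (median 797) in tumor libraries (4.42 ± 0.71, adjusted p = 0.00548). Ltf, Lcn2, S100a9 and Wfdc17 shared an order over the tumor libraries: libraries 2 and 3 were lowest and libraries 4 to 7 were high, with library 1 between them or beside the latter. Lrg1, a secreted glycoprotein, had 81.8 and 54.3 in naive and 982 to 3303 (median 2013) in tumor libraries (4.93 ± 0.39), with library 2 lowest. Arg1, which breaks down arginine, had 4.64 and 32.6 in naive and 169 to 514 (median 426) in tumor libraries, and Nos2, which makes nitric oxide from it, had 1.16 and 6.04 in naive and 44.8 to 194 (median 91.01) in tumor libraries. Both enzymes rose (4.61 ± 0.597 and 4.54 ± 0.57), with libraries 2 and 3 again the lowest. Ltf, Lcn2, S100a9 and S100a8 are on the neutrophil list, of which 6 of 16 tested members rose and 0 fell (median log2 change 2.46, with 6, 3 and 2 called without naive library 1, without naive library 2 and by limma-voom). Among all genes tested, 2.42% were called higher and 2.21% lower. Of the members of the neutrophil list 14 had a log2 change above 0. The summed level given above did not separate the groups, and most of it was Retnlg, a resistin-like protein and the most abundant member. Retnlg had 27229 and 61287 in naive and 17826 to 56084 (median 31449) in tumor libraries, with a log2 change of −0.35 (not called). The whole list summed to 29604 and 63447 normalised reads in naive and 22236 to 67191 in tumor libraries. That sum therefore says little on the other members. The part of neutrophil transcripts in these rises was not tested. After removal of naive library 1, the log2 changes of Ltf, Arg1, Nos2 and Wfdc17 moved to 3.84, 3.32, 3.69 and 3.64. Once naive library 2 was removed, S100a8 (4.93) was not called (adjusted p = 0.0509) and the log2 changes of Ltf, Arg1, Nos2 and Wfdc17 moved to 5.41, 5.89, 5.39 and 5.02. With both tumor libraries 2 and 3 removed, S100a9, Wfdc17 and S100a8 moved to 4.98, 4.93 and 5.102. limma-voom did not call Ltf, Nos2, Wfdc17 and S100a8 (adjusted p = 0.0797 to 0.203). Wfdc17 missed the threshold without naive library 1 under the looser filter (adjusted p = 0.0536).

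**Figure D3:**
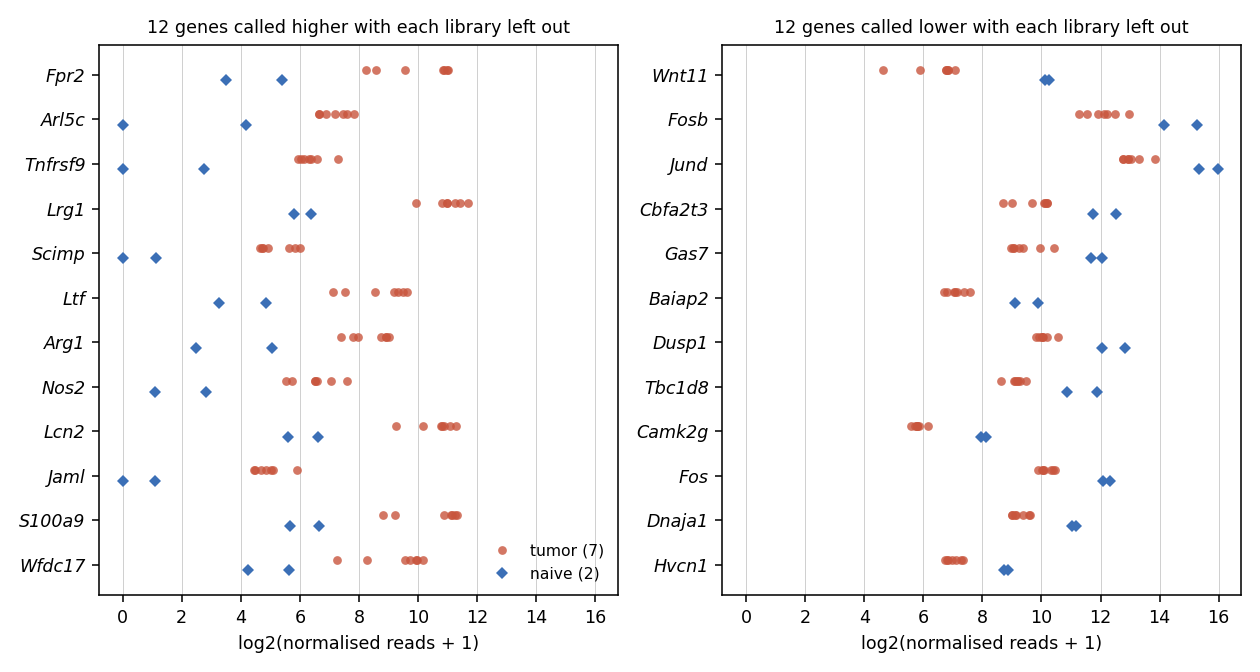
Level of each library, as log2(normalised reads + 1), for the 12 genes with the largest rises (left) and the 12 with the largest falls (right) among those called with each library left out. In every row the 7 tumor points lie on 1 side of both naive points.

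The other genes that rose with every library left out, chosen for naming after their values were seen, covered several functions. Ifitm3, a membrane protein that blocks virus entry, Cd14, the lipopolysaccharide co-receptor, and the lipid exporter Abca1 were among them. Abca1 had 70.2 and 77.3 normalised reads in the naive libraries and 290.2 to 551 (median 454) in the tumor libraries (2.54 ± 0.296, adjusted p = 0.00142). Dgat2, which makes triglycerides, had 69.03 and 88.2 in naive and 247 to 592 (median 381) in tumor libraries (2.27 ± 0.32, adjusted p = 0.00287). No tumor library overlapped a naive one for either gene. Arg2, the mitochondrial arginase, had 7.54 and 30.2 in naive and 83.4 to 201 (median 184) in tumor libraries (3.14 ± 0.5, adjusted p = 0.00505), and Smox, a spermine oxidase further along the polyamine route, had 22.6 and 35.02 in naive and 173 to 625 (median 411) in tumor libraries (3.64 ± 0.43, adjusted p = 0.00153). Marcks and Marcksl1 are a related pair of proteins that bind membrane and actin. Marcks had 29 and 43.5 in naive and 183 to 548 (median 282) in tumor libraries (2.93 ± 0.395, adjusted p = 0.00271), and Marcksl1 had 1100.4 and 2841 in naive and 9064 to 32328 (median 18660.4) in tumor libraries (3.22 ± 0.53, adjusted p = 0.00592). Both had their highest value in tumor library 7. AW112010, a long noncoding RNA, had 38.3 and 109.9 in naive and 414 to 740.3 (median 587) in tumor libraries (3.103 ± 0.38, adjusted p = 0.00166). The carbonyl reductase Cbr2 had 144 and 70.04 in naive and 589.7 to 1045 (median 772) in tumor libraries (2.94 ± 0.33, adjusted p = 0.00112), and Ier3, an early response gene, had 423 and 254 in naive and 1050.3 to 1806 (median 1591) in tumor libraries (2.17 ± 0.295, adjusted p = 0.00271). Ms4a6d, a membrane protein of the MS4A family, had 8.12 and 9.66 in naive and 44.5 to 94.4 (median 64.1) in tumor libraries (2.73 ± 0.38, adjusted p = 0.00287). Plekhs1, a protein with a pleckstrin homology domain, was at 0 in both naive libraries and at 10.9 to 31.0 in tumors, at least 6.75-fold higher than the floor of 3 reads per naive library (adjusted p = 0.00351, by limma-voom 0.265). Tnfrsf23, a decoy receptor for the death ligand TRAIL, had 29 and 12.1 in naive and 124 to 277 (median 216) in tumor libraries (3.33 ± 0.402, adjusted p = 0.00153), and C3, the central complement protein, had 49.9 and 84.5 in naive and 327 to 1082 (median 386) in tumor libraries (2.86 ± 0.43, adjusted p = 0.00373). In the fit without naive library 1, the log2 changes of Marcksl1, Arg2, AW112010 and Tnfrsf23 moved to 2.54, 2.202, 2.35 and 3.93. Omitting naive library 2, the log2 changes of Marcksl1, Arg2, AW112010 and Tnfrsf23 moved to 3.91, 4.07, 3.85 and 2.73. With limma-voom, Arg2 and Ms4a6d were not called (adjusted p = 0.0519 to 0.0815). Under the looser filter Marcksl1 missed the threshold without naive library 1 (adjusted p = 0.0629), nor Ier3 without naive library 2 (adjusted p = 0.0532).

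Genes known from surface epithelium were in this group as well. Krt6a, a keratin of stressed epithelium, had 16.8 and 33.8 normalised reads in the naive libraries and 258 to 1239 (median 487) in the tumor libraries (4.297 ± 0.48). Krt13 had 9.28 and 27.8 in naive and 123 to 554 (median 234) in tumor libraries (3.85 ± 0.58, adjusted p = 0.00378), and Krt14, a basal keratin, had 6.38 and 16.9 in naive and 32.1 to 215 (median 151) in tumor libraries (3.47 ± 0.598, adjusted p = 0.00744). Their values did not follow one another over the tumor libraries: Krt13 was highest in libraries 4 and 5, Krt14 was lowest in library 5, and Krt6a was highest in library 6. Sprr1a, a protein of the cornified envelope, had 66.1 and 18.1 in naive and 272 to 733 (median 389) in tumor libraries (3.53 ± 0.46, adjusted p = 0.00231). Clca4b, a regulator of chloride channels, had 34.2 and 134 in naive and 471 to 1580.4 (median 903) in tumor libraries (3.66 ± 0.54, adjusted p = 0.00373), and Plet1 had 9.86 and 28.98 in naive and 55.4 to 129.8 (median 123) in tumor libraries (2.603 ± 0.44, adjusted p = 0.00647). Met, the hepatocyte growth factor receptor, had 58.01 and 59.2 in naive and 196 to 429.7 (median 255) in tumor libraries (2.23 ± 0.33, adjusted p = 0.00351), and Prss22, a serine protease of airway and gut epithelium, had 4.64 and 6.04 in naive and 40.9 to 331 (median 122) in tumor libraries (4.21 ± 0.59, adjusted p = 0.00287). The 16 epithelial markers of the fixed list moved less evenly. Its most abundant member Lgals4, an intestinal galectin, had 4262 and 2591 in naive and 2584 to 9407 (median 3808) in tumor libraries (log2 change 0.48, not called). Reg3g, an antibacterial lectin, had 35.96 and 38.6 in naive and 65.2 to 568 (median 286) in tumor libraries (2.55 ± 0.61, adjusted p = 0.0344). The chloride exchanger Slc26a3 and carbonic anhydrase Car1, both of mature colonocytes, went the other way, with 165 and 79.7 in naive and 5.15 to 25.8 (median 12.4) in tumor libraries (−3.17 ± 0.59, adjusted p = 0.0116) and 455 and 397 in naive and 40.1 to 153 (median 74.3) in tumor libraries (−2.401 ± 0.497, adjusted p = 0.018). The part of epithelial transcripts in the keratin and Sprr1a values was not tested. Leaving naive library 1 out, Reg3g, Slc26a3 and Car1 (2.5, −2.65 and −2.304) were not called (adjusted p = 0.0669 to 0.104) and the log2 changes of Clca4b, Krt13, Krt14, Plet1 and Sprr1a moved to 2.69, 3.11, 2.83, 1.87 and 4.43. Without naive library 2, Reg3g, Slc26a3 and Car1 (2.601, −3.69 and −2.499) were not called (adjusted p = 0.0734 to 0.266) and the log2 changes of Clca4b, Krt13, Krt14, Plet1 and Sprr1a moved to 4.63, 4.59, 4.11, 3.34 and 2.62. Likewise not called were Reg3g without tumor library 1, 3 or 7 (2.47 to 2.56), with adjusted p = 0.0559 to 0.0605. With both tumor libraries 2 and 3 removed, Reg3g (2.36) was not called (adjusted p = 0.0733). By limma-voom Reg3g, Car1, Krt13, Krt14 and Prss22 were not called (adjusted p = 0.0506 to 0.27). Under the looser filter Krt14 was not called without either naive library (adjusted p = 0.0682 and 0.0532), nor were Met and Prss22 without naive library 2 (adjusted p = 0.052 and 0.0511).

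Signalling and transcription genes were among the 15 that fell with every library left out. Wnt11, a secreted Wnt ligand of the noncanonical branch (chromosome 7, 98835112 to 98855195), had 1234 and 1116 normalised reads in the naive libraries and 23.6 to 134 (median 108) in the tumor libraries. Its log2 change of −3.796 ± 0.54 was the largest of these falls, and tumor libraries 6 and 7 were lowest. Fosb, an AP-1 subunit (chromosome 7, 19302696 to 19310051), had 39335 and 18009 in naive and 2464 to 8001 (median 4411) in tumor libraries and changed by −2.63 ± 0.43 (adjusted p = 0.00625). Jund, also of AP-1, had 40904 and 63713 in naive and 6893 to 14722 (median 7859) in tumor libraries, and Fos, its partner, had 4369.6 and 5158 in naive and 935 to 1409 (median 1083) in tumor libraries (−2.56 ± 0.35 and −2.05 ± 0.26). For Fosb naive library 1 was the higher, and for Jund naive library 2. Dusp1, which switches off MAP kinases (chromosome 17, 26505590 to 26562128), had 4273 and 7192 in naive and 898 to 1521 (median 1032) in tumor libraries (−2.36 ± 0.29). Camk2g, a calcium-dependent kinase, had 248 and 279 in naive and 46.4 to 71.03 (median 53.8) in tumor libraries (−2.24 ± 0.298), and the values of each group spanned a narrow range. Cbfa2t3, a transcriptional corepressor of blood cells, had 5889 and 3449.8 in naive and 410.4 to 1158 (median 1084) in tumor libraries (−2.44 ± 0.42, adjusted p = 0.00782).

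Others of the 15 act in membrane shape, stress, transport and lipid metabolism. Gas7, which bends membranes and binds actin (chromosome 11, 67455437 to 67688990), had 4232 and 3296 normalised reads in the naive libraries and 499 to 1387 (median 597) in the tumor libraries (−2.43 ± 0.38, adjusted p = 0.00485). Baiap2, which drives thin cell protrusions, had 949.6 and 555 in naive and 104 to 191 (median 133) in tumor libraries (−2.396 ± 0.32), and Tbc1d8, a protein with a Rab GTPase-activating domain, had 1852 and 3781 in naive and 399 to 711 (median 576) in tumor libraries (−2.24 ± 0.31). For all 3 the lowest naive value was above the highest tumor value. Dnaja1, a co-chaperone of HSP70, had 2082 and 2303 in naive and 514 to 780.0 (median 564) in tumor libraries (−1.84 ± 0.26). Hvcn1, the voltage-gated proton channel that supports the oxidative burst (chromosome 5, 122206804 to 122242297), had 463 and 427 in naive and 105 to 162 (median 123) in tumor libraries (−1.796 ± 0.28, adjusted p = 0.00477). Slc2a3, a glucose transporter, had 1931 and 1258 in naive and 433 to 595 (median 534) in tumor libraries (−1.55 ± 0.26, adjusted p = 0.00625), and Alox12e, a lipoxygenase, had 1179.9 and 813 in naive and 256 to 387 (median 337) in tumor libraries (−1.58 ± 0.27, adjusted p = 0.00648). Limma-voom called all 15 genes that fell, against 29 of the 50 that rose. With the looser filter on reduced fits, Fosb and Cbfa2t3 were not called without naive library 1 (adjusted p = 0.0565 and 0.0644), nor were Wnt11, Jund, Gas7, Cbfa2t3, Tbc1d8, Dnaja1 and Hvcn1 without naive library 2 (adjusted p = 0.0507 to 0.0642). The remaining one of the 15, the predicted gene Gm26532, was not called there without either naive library (adjusted p = 0.0552 and 0.0532).

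Promoters of these genes were searched for short motifs. RefSeq sequences (GRCm38.p6) of 250 bases before and 50 after the start were matched for 9296 of the genes tested, 228 called higher and 225 called lower, and searched on both strands. Each sequence shown belongs to the gene with the smallest p among those with the motif, runs 5′ to 3′ on the strand of the gene, and has the matching letters in capitals. GAAANNGAA (interferon-stimulated response element, an IRF and STAT site) lay in 7.69% of all promoters, 13.6% of those called higher and 6.67% of those called lower. It lay in 19 of 28 promoters (67.9%) of the interferon list. The match in the promoter of Saa3, an acute-phase apolipoprotein, lies 125 bases before the start (chr7:46715677-46715926, minus strand).
Saa3: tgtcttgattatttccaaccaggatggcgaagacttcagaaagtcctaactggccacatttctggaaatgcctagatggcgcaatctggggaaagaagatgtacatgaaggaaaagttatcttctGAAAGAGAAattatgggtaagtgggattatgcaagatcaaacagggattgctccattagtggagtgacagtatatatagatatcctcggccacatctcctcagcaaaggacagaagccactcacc
GGANTTTCC (NF-kB site) lay in 1.47% of all promoters, 5.26% of those called higher and 2.67% of those called lower, among them Nlrp3, the inflammasome sensor, 122 bases before the start (chr11:59541319-59541568, plus strand).
Nlrp3: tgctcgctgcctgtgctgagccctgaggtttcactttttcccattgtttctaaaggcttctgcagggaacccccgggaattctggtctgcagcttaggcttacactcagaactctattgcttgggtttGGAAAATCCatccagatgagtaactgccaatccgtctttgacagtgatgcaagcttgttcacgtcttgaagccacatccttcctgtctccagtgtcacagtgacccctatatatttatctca
TGANTCA (AP-1 site) lay in 5.52% of all promoters, 14.5% of those called higher and 7.11% of those called lower. It lay in 8 of 36 (22.2%) called higher with each library left out: Cp, Entpd3, Ifit3b, Ifitm3, Krt13, Met, Plet1 and Sprr1a. These letters lay in 0 of 19 immediate-early promoters. N stands for any letter, so these counts are wider than the classical AP-1 site, TGACTCA or TGAGTCA. The match of Cp, the copper carrier ceruloplasmin, lies 177 bases before the start (chr3:19956804-19957053, plus strand). Its letters, TGATTCA, fit the pattern and not the classical site.
Cp: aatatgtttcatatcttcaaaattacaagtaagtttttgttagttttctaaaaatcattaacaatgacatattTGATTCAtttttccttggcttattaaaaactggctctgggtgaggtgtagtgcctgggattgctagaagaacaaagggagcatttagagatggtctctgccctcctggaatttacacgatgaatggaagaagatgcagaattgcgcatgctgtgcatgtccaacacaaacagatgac

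TTCNNNGAA (gamma-activated site) lay in 6.90% of all promoters, 10.1% of those called higher and 3.11% of those called lower. Ifitm3 holds it 13 bases after the start (chr7:141010712-141010741, minus strand).
Ifitm3: aaaaggaaacTTCTGAGAAaccgaaactgc
TGACGTCA (cyclic AMP response element) went the other way from these, at 3.13% of all promoters, 0.439% of those called higher and 1.33% of those called lower. Dusp1 was 1 of the 3 called lower that hold it, 143 bases before the start (chr17:26508473-26508722, minus strand). That stretch lies inside the range given above for Dusp1, so the sources of range and promoter place its start differently.
Dusp1: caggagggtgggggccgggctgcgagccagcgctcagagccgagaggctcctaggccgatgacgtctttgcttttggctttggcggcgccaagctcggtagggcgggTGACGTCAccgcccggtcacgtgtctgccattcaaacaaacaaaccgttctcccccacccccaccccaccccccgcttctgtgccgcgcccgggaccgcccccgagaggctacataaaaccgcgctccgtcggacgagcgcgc
GAANNTTC (heat shock element) lay in 5.65% of all promoters, 6.14% and 6.22% of those called higher and lower, and 9 of 21 (42.9%) on the heat shock list. ACGTGC (hypoxia response element) lay in 7.81% of all promoters, 4.82% of those called higher and 5.33% of those called lower. CCATATTAG (serum response element, searched as these fixed letters alone) lay in 0.0753% of all promoters and in none of those called. The gamma-activated, heat shock and interferon-stimulated motifs share the letters GAA, so 1 stretch can match more than 1 of them. A match describes letters, not binding.

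The called genes that moved most reads were in part others than those above. After Marcksl1, the largest gains in reads included Ly6e and Ly6a, surface proteins of the Ly6 family, the MHC class II chaperone Cd74, the interferon-induced Ifitm1, Ifitm2 and Ifitm3, and the GTPase Gbp2. Ifitm1 had 476 and 629 normalised reads in the naive libraries and 3022 to 10780.5 (median 7789) in the tumor libraries (3.52 ± 0.48, adjusted p = 0.00271). Ifitm2 had 1078 and 739 in naive and 2581 to 5584 (median 3987) in tumor libraries (2.14 ± 0.33, adjusted p = 0.00467), and Ifitm3 had 724 and 689 in naive and 2506 to 5734 (median 3237) in tumor libraries (2.296 ± 0.31). Ifitm1 was highest in tumor libraries 4 to 7, while Ifitm3 was highest in library 2. Ly6a had 1202 and 1336 in naive and 2694 to 9532 (median 6685) in tumor libraries (2.24 ± 0.44, adjusted p = 0.0144), with libraries 1 to 3 highest, and Gbp2 had 93.97 and 199 in naive and 535 to 5459.6 (median 2475) in tumor libraries (3.69 ± 0.83, adjusted p = 0.0262), with libraries 1 to 3 lowest. Ly6e had 11188 and 5158 in naive and 15257 to 23725 (median 20432) in tumor libraries (1.37 ± 0.35, adjusted p = 0.0422), and Cd74 had 5135 and 2343 in naive and 10239 to 19804 (median 14915) in tumor libraries (2.07 ± 0.38). Once naive library 1 was removed, Ly6a and Gbp2 (2.17 and 3.16) were not called (adjusted p = 0.0537 to 0.123). With naive library 2 left out, Ly6e, Cd74, Ly6a, Ifitm2 and Gbp2 (0.81, 1.503, 2.32, 1.87 and 4.23) were not called (adjusted p = 0.0852 to 0.467). The threshold was also missed by Ly6e without tumor library 1, 3, 4, 5, 6 or 7 (1.33 to 1.41), with adjusted p = 0.0584 to 0.0759. Without tumor libraries 2 and 3 together, Gbp2 moved to 4.38. Under limma-voom Ly6e and Gbp2 were not called (adjusted p = 0.0507 to 0.117), and edgeR did not call Ly6e (adjusted p = 0.0618).

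The largest losses in reads, after Jund and Fosb, were Jun, Eif1, Cd44, Cd24a, Zfp36 and Myadm. Jun, the central AP-1 subunit, had 32741 and 36393 normalised reads in the naive libraries and 5818 to 16129 (median 8899) in the tumor libraries (−1.93 ± 0.42, adjusted p = 0.023). Zfp36, which destabilises cytokine mRNAs, had 15349.8 and 16059 in naive and 4263 to 8579.6 (median 5778) in tumor libraries (−1.43 ± 0.298, adjusted p = 0.019). Both were close in the naive libraries and lower in all 7 tumor libraries. Cd44, a hyaluronan receptor, had 9759.6 and 26661 in naive and 2337 to 6441 (median 4905) in tumor libraries (−1.81 ± 0.42, adjusted p = 0.03), and Cd24a, a surface glycoprotein, had 20837 and 23371 in naive and 6317 to 13198 (median 8692) in tumor libraries (−1.28 ± 0.32, adjusted p = 0.0379). Eif1, a translation initiation factor, had 20628 and 41389 in naive and 8273 to 13912 (median 10190.3) in tumor libraries (−1.46 ± 0.34, adjusted p = 0.0291), and Myadm, a membrane protein of myeloid cells, had 7628 and 14177 in naive and 2546 to 3535 (median 3309) in tumor libraries (−1.74 ± 0.29, adjusted p = 0.00649). For Cd44, Eif1 and Myadm naive library 2 was well above naive library 1. Omitting naive library 1, Jun and Cd24a (−2.01 and −1.37) were not called (adjusted p = 0.0539 to 0.0608) and the log2 change of Cd44 moved to −2.54. When naive library 2 was left out, Jun, Eif1, Cd44, Cd24a, Zfp36 and Myadm (−1.85, −0.95, −1.09, −1.201, −1.39 and −1.29) were not called (adjusted p = 0.109 to 0.433). Nor was a call made for Cd44 without tumor library 1 (−1.79), Cd24a without tumor library 1, 3, 5, 6 or 7 (−1.33 to −1.197) and Eif1 without tumor library 1 (−1.43), with adjusted p = 0.0549 to 0.0656. limma-voom did not call Jun, Cd44 and Cd24a (adjusted p = 0.0541 to 0.0795).

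Fixed gene lists were then read by role, each against the background of 2.42% called higher and 2.21% called lower. The counts describe the lists and are not tests of them. Among 25 pathway lists, acute-phase proteins, the interferon response and C-type lectins had the largest shares called higher, and immediate-early genes the largest share called lower.

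**Figure D4:**
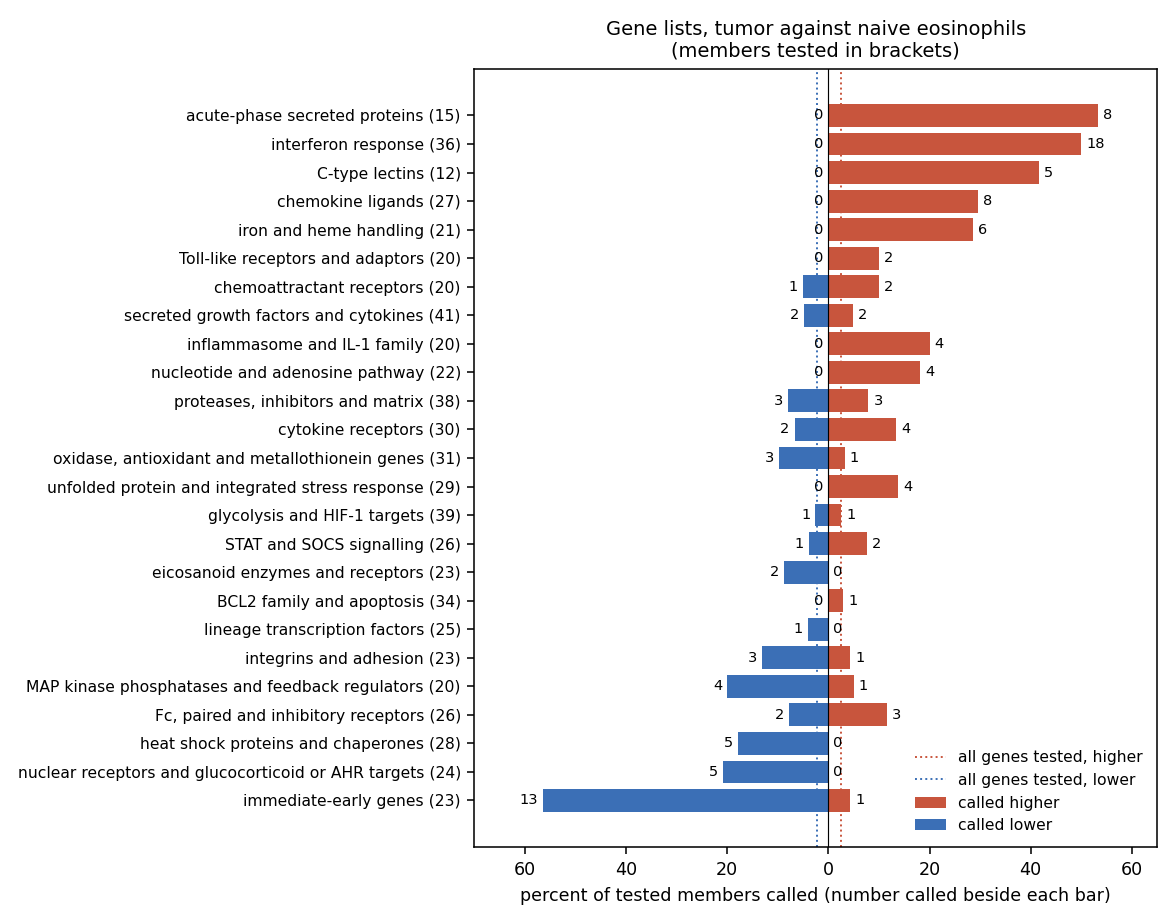
Percent of the tested members of each pathway list that were called higher (right) or lower (left), with the number called beside each bar and the share over all genes tested as dotted lines. Acute-phase proteins (8 of 15) and interferon response genes (18 of 36) extend farthest to the right, and immediate-early genes (13 of 23) farthest to the left.

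Receptors for cytokines moved in both directions. Of this list 4 of 30 tested members rose and 2 fell (median log2 change 0.25, with 6, 1 and 2 called without naive library 1, without naive library 2 and by limma-voom), and the 2 that fell were Il5ra and Il1rl1. Il13ra1, a chain of the interleukin-4 and interleukin-13 receptor, had 8.12 and 12.1 normalised reads in the naive libraries and 47.2 to 114 (median 52.1) in the tumor libraries (2.53 ± 0.42, adjusted p = 0.00625). Csf3r, the receptor for granulocyte colony-stimulating factor, had 53.4 and 33.8 in naive and 90.5 to 404 (median 320.4) in tumor libraries (2.47 ± 0.52, adjusted p = 0.0204). Tnfrsf1a, the first TNF receptor, had 28.4 and 19.3 in naive and 44.5 to 146 (median 101) in tumor libraries (1.901 ± 0.45, adjusted p = 0.0323). Ifngr2, a chain of the interferon gamma receptor, had 303 and 167 in naive and 399 to 710.0 (median 556) in tumor libraries (1.26 ± 0.305, adjusted p = 0.0357). Every tumor value of these 4 genes was above both naive values. Csf2rb, the beta chain shared by the receptors of interleukin-5 and GM-CSF, had 3004 and 1955 in naive and 884 to 2907 (median 2210.1) in tumor libraries (log2 change −0.42, not called). Csf2ra, which binds the eosinophil survival factor GM-CSF, had 4832 and 8367 in naive and 2650.1 to 8102 (median 4859.7) in tumor libraries (log2 change −0.33, not called). Its groups overlapped. Downstream of these receptors, 2 of 26 tested members rose and 1 fell (median log2 change −0.08, with 5, 0 and 1 called without naive library 1, without naive library 2 and by limma-voom) of the STAT and SOCS list. The feedback inhibitor Socs3 had 157 and 122 in naive and 305 to 706 (median 518) in tumor libraries (1.82 ± 0.37, adjusted p = 0.0167), and its relative Socs2 had 1324 and 1709 in naive and 114 to 407 (median 214) in tumor libraries (−2.86 ± 0.44, adjusted p = 0.0046). The SOCS pair thus changed in opposite directions, each with no overlap between groups. Bcl3, an atypical NF-kB regulator, had 74.8 and 28.98 in naive and 112 to 257 (median 190.4) in tumor libraries (1.95 ± 0.401, adjusted p = 0.0176). Pim1, a survival kinase and the most abundant member, had 54563 and 14228 in naive and 7934 to 37238 (median 28067) in tumor libraries (log2 change −0.28, not called), with naive library 1 above every tumor library and naive library 2 inside their range. Without naive library 1, Tnfrsf1a (2.17) was not called (adjusted p = 0.0512) and the log2 change of Bcl3 moved to 2.62. After removal of naive library 2, Csf3r, Tnfrsf1a, Ifngr2, Socs3, Bcl3 and Socs2 (2.15, 1.63, 0.83, 1.64, 1.28 and −2.68) were not called (adjusted p = 0.0852 to 0.426). The call also ended for Tnfrsf1a without tumor library 1, 4 or 7 (1.81 to 1.93) and Ifngr2 without tumor library 1, 4, 5, 6 or 7 (1.19 to 1.27), with adjusted p = 0.0528 to 0.0644. With limma-voom, Il13ra1, Csf3r, Tnfrsf1a, Ifngr2, Socs3 and Bcl3 were not called (adjusted p = 0.0736 to 0.215), and edgeR did not call Ifngr2 (adjusted p = 0.0621). Il13ra1 missed the threshold without naive library 2 under the looser filter (adjusted p = 0.0577).

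Lineage transcription factors were called about as often as all genes tested (4% against 4.63%). Of them 0 of 25 tested members rose and 1 fell (median log2 change −0.16, with 5, 0 and 1 called without naive library 1, without naive library 2 and by limma-voom). The 1 that fell was Ikzf1 (Ikaros), a factor of lymphoid and myeloid lineages, with 189 and 345 normalised reads in the naive libraries and 51.6 to 107 (median 89.01) in the tumor libraries (−1.63 ± 0.36, adjusted p = 0.0242). Spi1 (PU.1), the most abundant of the list, had 18048 and 17089.9 in naive and 8361 to 20356 (median 16405) in tumor libraries (log2 change −0.31, not called). Gata1, which specifies eosinophils, had 444 and 287 in naive and 62.4 to 227 (median 173) in tumor libraries (log2 change −1.34, adjusted p = 0.117), and Cebpe, which drives their late maturation, had 129 and 59.2 in naive and 24.2 to 54.1 (median 41.4) in tumor libraries (log2 change −1.13, adjusted p = 0.152). For both factors all 7 tumor values lay below both naive values, and the test was not passed. With naive library 2 left out, Ikzf1 (−1.19) was not called (adjusted p = 0.341).

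Receptors that guide movement showed rises for formyl peptides and a fall for eotaxin. Of the chemoattractant receptors 2 of 20 tested members rose and 1 fell (median log2 change 0.78, with 3, 2 and 0 called without naive library 1, without naive library 2 and by limma-voom), namely Fpr2 and Fpr1 upward and Ccr3 downward. Fpr1 had 0 and 13.3 normalised reads in the naive libraries and 39.1 to 634 (median 313) in the tumor libraries (5.89 ± 1.097, adjusted p = 0.0115), with libraries 2 and 3 lowest as for Fpr2. Ptafr, the platelet-activating factor receptor and the most abundant member, had 8262 and 19335 in naive and 4744 to 11083 (median 8320.2) in tumor libraries (log2 change −0.76, not called). Of the integrins and adhesion genes 1 of 23 tested members rose and 3 fell (median log2 change −0.17, with 3, 1 and 0 called without naive library 1, without naive library 2 and by limma-voom). Jaml was the 1 that rose, and Pecam1, an adhesion molecule of leukocytes and endothelium, fell beside Cd44, with 691 and 619 in naive and 177 to 339.8 (median 294) in tumor libraries (−1.31 ± 0.31, adjusted p = 0.03). Itgb7, an integrin chain used in homing to the gut, had 2576 and 3299 in naive and 507 to 1606 (median 1179.7) in tumor libraries (−1.43 ± 0.38, adjusted p = 0.04998). Itgb2, the leukocyte integrin chain and the most abundant member, had 19195 and 33105 in naive and 6361 to 15144 (median 12934) in tumor libraries (log2 change −1.24, not called). When naive library 1 was left out, Pecam1, Fpr1 and Itgb7 (−1.23, 3.97 and −1.61) were not called (adjusted p = 0.0784 to 0.089). Leaving naive library 2 out, Pecam1 and Itgb7 (−1.39 and −1.25) were not called (adjusted p = 0.184 to 0.4) and the log2 change of Fpr1 moved to 7.81. The threshold was also missed by Pecam1 without tumor library 7 (−1.24) and Itgb7 without tumor library 1, 3, 4, 6 or 7 (−1.49 to −1.39), with adjusted p = 0.0512 to 0.08. Without tumor libraries 2 and 3 together, Fpr1 moved to 6.78. Under limma-voom Pecam1, Fpr1 and Itgb7 were not called (adjusted p = 0.0732 to 0.506).

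C-type lectins, Toll-like receptors and their adaptors that were called all rose, and Fc and paired receptors went both ways. Of the C-type lectins 5 of 12 tested members rose and 0 fell (median log2 change 2.35, with 5, 2 and 2 called without naive library 1, without naive library 2 and by limma-voom). Clec4n (Dectin-2), which binds fungal mannans, had 51.6 and 92.98 normalised reads in the naive libraries and 466 to 1239 (median 895) in the tumor libraries (3.497 ± 0.405, adjusted p = 0.00142). Clec7a (Dectin-1), which binds beta-glucan, had 99.8 and 111 in naive and 565 to 2503 (median 1537) in tumor libraries (3.63 ± 0.57, adjusted p = 0.00484), and Clec5a, a lectin that signals through Dap12, had 2.32 and 3.62 in naive and 26.9 to 116 (median 61.2) in tumor libraries (3.79 ± 0.55, adjusted p = 0.00351). Clec4a3, of the same cluster as Clec4n, had 4.06 and 2.42 in naive and 15.4 to 45.2 (median 31.7) in tumor libraries (2.88 ± 0.52, adjusted p = 0.00975). For all 4 lectins the tumor libraries lay above both naive libraries. Of the Toll-like receptors and adaptors 2 of 20 tested members rose and 0 fell (median log2 change 0.81, with 2, 1 and 1 called without naive library 1, without naive library 2 and by limma-voom): Cd14, with 47.6 and 76.1 in naive and 389.6 to 1655 (median 1236) in tumor libraries (3.89 ± 0.53), and the lipopeptide receptor Tlr2, with 4.06 and 4.83 in naive and 19.8 to 55.7 (median 40.9) in tumor libraries (2.76 ± 0.49, adjusted p = 0.00942). Irak2, a kinase and the most abundant of the list, had 566 and 980.5 in naive and 921 to 2506 (median 1725) in tumor libraries (log2 change 1.04, not called). Of the Fc, paired and inhibitory receptors 3 of 26 tested members rose and 2 fell (median log2 change −0.38, with 6, 0 and 1 called without naive library 1, without naive library 2 and by limma-voom). The IgG receptor Fcgr4 had 3.48 and 7.25 in naive and 24.8 to 109 (median 59.2) in tumor libraries (3.27 ± 0.59, adjusted p = 0.00947), and the activating receptor Sirpb1c had 1.74 and 0 in naive and 12.4 to 79.5 (median 41.2) in tumor libraries. Sirpb1c had 3 naive reads, a ratio of 31.4 (95% exact counting interval 10.7 to 153) and an adjusted p of 0.0054. Trem1, which amplifies inflammatory signals, had 102 and 266 in naive and 357 to 1555 (median 1073) in tumor libraries (2.44 ± 0.57, adjusted p = 0.0301). Both that fell were inhibitory Siglecs, Siglecf and Siglecg, the latter with 1772 and 1169 in naive and 221 to 533 (median 325) in tumor libraries (−2.07 ± 0.37, adjusted p = 0.00908). The signalling adaptor Tyrobp (Dap12), most abundant here, had 3042 and 5301 in naive and 1759.9 to 4088 (median 3168) in tumor libraries (log2 change −0.46, not called). Of the neutrophil and macrophage marker lists 6 of 16 and 4 of 11 tested members rose, and their part in the receptor values was not tested. After removal of naive library 1, Trem1 (1.76) was not called (adjusted p = 0.174) and the log2 change of Sirpb1c moved to 5.26. Once naive library 2 was removed, Sirpb1c, Fcgr4, Trem1, Siglecg, Clec7a, Clec4a3 and Tlr2 (3.802, 3.71, 3.13, −2.37, 3.71, 2.6 and 2.86) were not called (adjusted p = 0.0548 to 0.125). Nor was a call made for Trem1 without tumor library 1, 4 or 7 (2.31 to 2.4), with adjusted p = 0.0501 to 0.0536. limma-voom did not call Sirpb1c, Fcgr4, Trem1, Clec5a, Clec4a3 and Tlr2 (adjusted p = 0.11 to 0.55).

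Inflammasome and interleukin-1 genes rose in part. Of that list 4 of 20 tested members rose and 0 fell (median log2 change 0.66, with 4, 2 and 1 called without naive library 1, without naive library 2 and by limma-voom). The sensor Nlrp3 had 23.8 and 22.9 normalised reads in the naive libraries and 248 to 884 (median 523) in the tumor libraries (4.32 ± 0.44). Il1f9, the epithelial and myeloid cytokine interleukin-36 gamma, had 2.32 and 8.45 in naive and 33.6 to 187 (median 137) in tumor libraries (4.13 ± 0.696, adjusted p = 0.00648). Il18bp, which neutralises interleukin-18, had 5.22 and 1.21 in naive and 16.6 to 64.2 (median 33.5) in tumor libraries (3.16 ± 0.63, adjusted p = 0.0147). Mefv, the sensor pyrin, had 13.9 and 32.6 in naive and 74.7 to 523 (median 386) in tumor libraries (3.46 ± 0.71, adjusted p = 0.0176). Il1b itself, the most abundant member, had 1205 and 3503 in naive and 3105 to 13952 (median 10253) in tumor libraries and missed the threshold (log2 change 1.87, adjusted p = 0.0996). Tumor libraries 2 and 3 lay below naive library 2 for Il1b, whereas the groups did not overlap for the 4 that rose. In the fit without naive library 1, Mefv (2.88) was not called (adjusted p = 0.0965) and the log2 changes of Il1f9 and Il18bp moved to 3.38 and 3.91. Omitting naive library 2, Il18bp and Mefv (2.42 and 4.05) were not called (adjusted p = 0.104 to 0.243) and the log2 change of Il1f9 moved to 4.89. Without tumor libraries 2 and 3 together, Mefv moved to 4.07. With limma-voom, Il1f9, Il18bp and Mefv were not called (adjusted p = 0.188 to 0.452). Under the looser filter Il1f9 was not called without either naive library (adjusted p = 0.065 and 0.0516).

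Secreted ligands divided into chemokines, which rose where called, and growth factors and cytokines, which went both ways. Of the chemokine ligands 8 of 27 tested members rose and 0 fell (median log2 change 1.63, with 4, 3 and 1 called without naive library 1, without naive library 2 and by limma-voom). Cxcl5, a neutrophil attractant, had 8.7 and 19.3 normalised reads in the naive libraries and 164 to 415 (median 313) in the tumor libraries (4.28 ± 0.42), and Cxcl9, which attracts T cells, had 9.28 and 9.66 in naive and 32.4 to 138 (median 64.9) in tumor libraries (2.77 ± 0.495). Cxcl1, another neutrophil attractant, had 98.03 and 41.1 in naive and 156 to 435 (median 281) in tumor libraries (2.08 ± 0.41, adjusted p = 0.0143). Ccl20, which attracts cells bearing Ccr6, was at 0 in both naive libraries and at 4.83 to 51.6 in tumors, at least 8.39-fold higher than a floor of 3 reads per naive library (adjusted p = 0.0164). It was not called without naive library 2, by limma-voom or at a pseudocount of 5 (adjusted p = 0.155, 0.55 and 0.0667). Ccl6, the most abundant chemokine, had 46803 and 50019.8 in naive and 17763 to 34446 (median 22516) in tumor libraries (log2 change −1.03, adjusted p = 0.114), and its groups did not overlap. Of the growth factors and cytokines 2 of 41 tested members rose and 2 fell (median log2 change 0.67, with 5, 2 and 3 called without naive library 1, without naive library 2 and by limma-voom). Tnf, the inflammatory cytokine, had 58.6 and 48.3 in naive and 225 to 888 (median 727) in tumor libraries (3.43 ± 0.45), and Inhba, the activin A subunit, had 4.06 and 0 in naive and 20 to 54.1 (median 29.6) in tumor libraries (3.89 ± 0.62). The 2 that fell were Wnt11 and the angiogenic factor Vegfa, the latter with 2567 and 6659 in naive and 643 to 1590.1 (median 950.0) in tumor libraries (−2.06 ± 0.38). Leaving naive library 1 out, the log2 changes of Inhba, Vegfa and Cxcl1 moved to 5.06, −2.75 and 2.69. Without naive library 2, Inhba, Vegfa, Cxcl9 and Cxcl1 (2.72, −1.38, 2.796 and 1.46) were not called (adjusted p = 0.0799 to 0.255). By limma-voom Inhba, Cxcl9 and Cxcl1 were not called (adjusted p = 0.0801 to 0.35). Tnf missed the threshold without naive library 2 under the looser filter (adjusted p = 0.0512).

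Acute-phase and iron genes that were called all rose. Of the acute-phase proteins 8 of 15 tested members rose and 0 fell (median log2 change 2.42, with 6, 6 and 5 called without naive library 1, without naive library 2 and by limma-voom). Of the iron and heme genes 6 of 21 tested members rose and 0 fell (median log2 change 0.93, with 6, 5 and 2 called without naive library 1, without naive library 2 and by limma-voom). Lcn2, Cp, Hp and Hpx are on both lists. Saa3 had 83.5 and 114 normalised reads in the naive libraries and 975 to 2530.4 (median 1750.3) in the tumor libraries (4.12 ± 0.33), with tumor library 1 lowest. Cp, which oxidises iron for transport, had 25.5 and 14.5 in naive and 155 to 468 (median 256) in tumor libraries (3.82 ± 0.41), and was highest in libraries 2 and 3. Hp, which binds free hemoglobin, had 4.64 and 10.9 in naive and 29.7 to 192 (median 110.4) in tumor libraries (3.56 ± 0.59, adjusted p = 0.00625), and Steap4, a metalloreductase, had 0.580 and 13.3 in naive and 51.9 to 111 (median 101) in tumor libraries (4.16 ± 0.65, adjusted p = 0.00467). Fth1, the ferritin heavy chain and the most abundant iron gene, had 7715 and 4773 in naive and 5309 to 15643 (median 8263) in tumor libraries (log2 change 0.53, not called), and its groups overlapped. Once naive library 1 was removed, the log2 change of Steap4 moved to 2.58. With naive library 2 left out, the log2 change of Steap4 moved to 5.75. Under limma-voom Steap4 and Hp were not called (adjusted p = 0.0869 to 0.21). Under the looser filter Hp was not called without either naive library (adjusted p = 0.0558 and 0.0532).

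Proteases, lipid mediator enzymes and oxidant genes shifted in small numbers. Of the proteases, inhibitors and matrix genes 3 of 38 tested members rose and 3 fell (median log2 change 0.48, with 3, 1 and 1 called without naive library 1, without naive library 2 and by limma-voom). The cysteine protease inhibitor Stfa2 had 6.96 and 12.1 normalised reads in the naive libraries and 35.2 to 492 (median 262) in the tumor libraries (4.397 ± 0.83, adjusted p = 0.0124). Spp1 (osteopontin) had 0 and 3.62 in naive and 8.6 to 35.1 (median 16.6) in tumor libraries, with 3 naive reads, a ratio of 19.02 (95% exact counting interval 6.42 to 93.0) and an adjusted p of 0.0242. Mmp14, a membrane-bound metalloprotease, had 24.4 and 10.9 in naive and 38.7 to 120.1 (median 74.3) in tumor libraries (1.95 ± 0.49, adjusted p = 0.0416). The metalloprotease Adam19 had 543 and 795 in naive and 120.4 to 222 (median 148) in tumor libraries (−2.07 ± 0.305, adjusted p = 0.00351). Mmp25, another, had 367 and 406 in naive and 77.6 to 186 (median 143) in tumor libraries (−1.52 ± 0.34, adjusted p = 0.0266). Coagulation factor F5 had 4315 and 9427 in naive and 1236 to 2861 (median 2395) in tumor libraries (−1.62 ± 0.37, adjusted p = 0.0292). Those 3 were lower in every tumor library than in either naive library. Tgm2, a protein cross-linker and the most abundant member, had 14664 and 20588 in naive and 5195 to 17585 (median 9990.2) in tumor libraries (log2 change −0.78, not called). Omitting naive library 1, Stfa2, Spp1 and Mmp25 (4.04, 2.09 and −1.59) were not called (adjusted p = 0.0593 to 0.127). When naive library 2 was left out, Stfa2, Mmp14, Adam19, Mmp25 and F5 (4.75, 1.41, −1.8, −1.45 and −1.06) were not called (adjusted p = 0.0667 to 0.439) and the log2 change of Spp1 moved to 4.29. Nor was a call made for Mmp14 without tumor library 1, 2, 3 or 7 (1.81 to 1.93) and F5 without tumor library 1 (−1.61), with adjusted p = 0.053 to 0.0694. With both tumor libraries 2 and 3 removed, Spp1 and Mmp14 (3.05 and 1.79) were not called (adjusted p = 0.0679 to 0.0936) and Stfa2 moved to 5.17. limma-voom did not call Stfa2, Spp1, Mmp14, Mmp25 and F5 (adjusted p = 0.0506 to 0.37), and edgeR did not call Spp1 and Mmp14 (adjusted p = 0.0694 to 0.0696).

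In the eicosanoid list 0 of 23 tested members rose and 2 fell (median log2 change −0.13, with 3, 1 and 2 called without naive library 1, without naive library 2 and by limma-voom). Beside Alox12e, thromboxane synthase Tbxas1 had 816 and 767 normalised reads in the naive libraries and 135 to 297 (median 247) in the tumor libraries (−1.83 ± 0.34, adjusted p = 0.0115). Alox15, the lipoxygenase typical of eosinophils, had 2624 and 4785 in naive and 808 to 2331 (median 1228) in tumor libraries and missed the threshold (log2 change −1.39, adjusted p = 0.0673). Pla2g7, which breaks down platelet-activating factor, had 36229 and 105359 in naive and 19868 to 39986 (median 27332) in tumor libraries (log2 change −1.18, not called). Of the oxidase, antioxidant and metallothionein genes 1 of 31 tested members rose and 3 fell (median log2 change 0.196, with 7, 1 and 3 called without naive library 1, without naive library 2 and by limma-voom). Duox2, an epithelial source of hydrogen peroxide, had 129.9 and 77.3 in naive and 352 to 1704 (median 1082) in tumor libraries (3.2 ± 0.48, adjusted p = 0.00373), with libraries 1 and 3 highest. Beside Hvcn1, Cat, the peroxide-degrading enzyme catalase, fell, with 497 and 1156 in naive and 116 to 321 (median 213) in tumor libraries (−1.89 ± 0.43, adjusted p = 0.0262). Ncf1, a subunit of the phagocyte oxidase and the most abundant of the list, had 16744 and 8725 in naive and 8638 to 23550.4 (median 15947) in tumor libraries (log2 change 0.28, not called), with groups that overlapped. Without naive library 1, the log2 change of Cat moved to −2.497. After removal of naive library 2, Tbxas1, Duox2 and Cat (−1.87, 2.83 and −1.28) were not called (adjusted p = 0.0852 to 0.4). With limma-voom, Cat was not called (adjusted p = 0.0543).

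Nucleotide handling genes that were called all rose. Of this list 4 of 22 tested members rose and 0 fell (median log2 change 0.599, with 3, 2 and 0 called without naive library 1, without naive library 2 and by limma-voom). Entpd3, a surface enzyme that degrades ATP, had 2.9 and 6.04 normalised reads in the naive libraries and 45.5 to 110.1 (median 86.01) in the tumor libraries (3.93 ± 0.43), and Xdh, which makes uric acid, had 17.98 and 3.62 in naive and 50.9 to 178 (median 87.6) in tumor libraries (3.32 ± 0.56, adjusted p = 0.00669). P2ry13, a receptor for ADP, had 11.02 and 27.8 in naive and 76.2 to 356 (median 173) in tumor libraries (3.098 ± 0.56, adjusted p = 0.00975). Bst1, an ectoenzyme that consumes NAD, had 2.9 and 7.25 in naive and 11.7 to 51.1 (median 33.5) in tumor libraries (2.34 ± 0.61, adjusted p = 0.0483). P2ry14, the receptor for UDP-glucose and the most abundant member, had 1813 and 3065 in naive and 594 to 1579.8 (median 1217) in tumor libraries (log2 change −1.24, not called), with groups that did not overlap. Energy and survival genes were called about as often as all genes. Of the glycolysis and HIF-1 targets 1 of 39 tested members rose and 1 fell (median log2 change 0.04, with 6, 1 and 1 called without naive library 1, without naive library 2 and by limma-voom). The oxygen sensor Egln3 had 66.1 and 101 in naive and 175 to 305 (median 196) in tumor libraries (1.38 ± 0.31, adjusted p = 0.0268), Slc2a3 was the 1 that fell, and Pkm, the most abundant glycolytic enzyme, had 15896 and 4453 in naive and 10577 to 20613 (median 14912) in tumor libraries (log2 change 0.84, not called). Of the BCL2 family and apoptosis genes 1 of 34 tested members rose and 0 fell (median log2 change −0.16, with 4, 0 and 0 called without naive library 1, without naive library 2 and by limma-voom), the survival factor Bcl2l1 with 139 and 115 in naive and 239 to 672 (median 504) in tumor libraries (1.87 ± 0.37, adjusted p = 0.0147). Mcl1, the most abundant of that list, had 4255 and 4615 in naive and 2541 to 4125 (median 3153) in tumor libraries (log2 change −0.49, not called). With naive library 1 left out, Egln3, P2ry13 and Bst1 (1.08, 2.47 and 1.801) were not called (adjusted p = 0.0601 to 0.189) and the log2 change of Xdh moved to 4.34. In the fit without naive library 2, Bcl2l1, Egln3, Xdh and Bst1 (1.73, 1.69, 2.3 and 2.88) were not called (adjusted p = 0.0857 to 0.182) and the log2 change of P2ry13 moved to 3.73. Likewise not called were Bst1 without tumor library 1, 4, 5, 6 or 7 (2.198 to 2.4) and Egln3 without tumor library 4 (1.33), with adjusted p = 0.0504 to 0.0862. With both tumor libraries 2 and 3 removed, Egln3 (1.404) was not called (adjusted p = 0.0516). By limma-voom Bcl2l1, Egln3, Entpd3, Xdh, P2ry13 and Bst1 were not called (adjusted p = 0.0555 to 0.426), and edgeR did not call Bst1 (adjusted p = 0.0619).

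Stress chaperones that were called fell, and the 4 called genes of the unfolded protein response rose. Of the heat shock proteins and chaperones 0 of 28 tested members rose and 5 fell (median log2 change −0.51, with 3, 2 and 3 called without naive library 1, without naive library 2 and by limma-voom). Hspa1b, an inducible HSP70, had 4301 and 4893 normalised reads in the naive libraries and 364 to 1739.7 (median 630.0) in the tumor libraries (−2.63 ± 0.51, adjusted p = 0.0143), with tumor libraries 2 and 3 highest. It shares nearly all its sequence with Hspa1a, so its value may hold reads of both. Dnajb1, a co-chaperone of HSP70, had 726 and 378 in naive and 146 to 220.2 (median 176) in tumor libraries (−1.56 ± 0.31, adjusted p = 0.0155). Hspa8, the constitutive HSP70, had 491 and 399.7 in naive and 147 to 295 (median 175) in tumor libraries (−1.23 ± 0.31, adjusted p = 0.0422). Hspe1, a mitochondrial chaperonin and the most abundant member, had 1791 and 2893 in naive and 1085 to 3827 (median 1556) in tumor libraries (log2 change −0.41, not called). Of the unfolded protein and integrated stress response genes 4 of 29 tested members rose and 0 fell (median log2 change 0.13, with 6, 1 and 0 called without naive library 1, without naive library 2 and by limma-voom). Chac1, a target of the ATF4 pathway, had 2.9 and 7.25 in naive and 21.5 to 68.1 (median 30.1) in tumor libraries (2.65 ± 0.505, adjusted p = 0.0125), and Nupr1, a stress-induced chromatin protein, had 19.1 and 8.45 in naive and 36.6 to 90.96 (median 53.8) in tumor libraries (2.003 ± 0.43, adjusted p = 0.0216). Manf, a factor secreted under endoplasmic reticulum stress, had 171 and 66.4 in naive and 202 to 404 (median 319.9) in tumor libraries (1.5 ± 0.37, adjusted p = 0.0379). Calr, the chaperone calreticulin, had 685 and 147 in naive and 706 to 1254 (median 1097) in tumor libraries (1.71 ± 0.45, adjusted p = 0.0485). Atf3, the most abundant of this list, had 5817 and 8872 in naive and 2698 to 5792 (median 4212) in tumor libraries (log2 change −0.83, not called). When naive library 1 was left out, Dnajb1, Hspa8 and Chac1 (−1.09, −1.08 and 2.11) were not called (adjusted p = 0.0594 to 0.13) and the log2 changes of Manf and Calr moved to 2.18 and 2.81. Leaving naive library 2 out, Hspa1b, Hspa8, Nupr1, Manf and Calr (−2.53, −1.37, 1.46, 0.82 and 0.602) were not called (adjusted p = 0.176 to 0.626). The threshold was also missed by Hspa8 without tumor library 1, 3, 4, 5, 6 or 7 (−1.27 to −1.17), Manf without tumor library 1, 2, 3, 4, 6 or 7 (1.43 to 1.53) and Calr without tumor library 1, 3, 4, 5, 6 or 7 (1.66 to 1.74), with adjusted p = 0.0524 to 0.0801. Without tumor libraries 2 and 3 together, Manf and Calr (1.45 and 1.76) were not called (adjusted p = 0.0606 to 0.077). Under limma-voom Hspa8, Chac1, Nupr1, Manf and Calr were not called (adjusted p = 0.0795 to 0.22), and edgeR did not call Manf and Calr (adjusted p = 0.0818 to 0.148).

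The immediate-early list had the largest share of calls. Of that list 1 of 23 tested members rose and 13 fell (median log2 change −1.13, with 10, 3 and 8 called without naive library 1, without naive library 2 and by limma-voom). Those that fell were Fos, Fosb, Fosl2, Jun, Junb, Jund, Egr1, Ier2, Ier5, Btg2, Klf2, Klf6 and Zfp36. Klf2, a zinc finger transcription factor of leukocytes and endothelium, had 8221 and 7819 in naive and 997 to 2873 (median 1399.7) in tumor libraries (−2.404 ± 0.401, adjusted p = 0.00642). Myc, a growth-promoting transcription factor, was at 0 in both naive libraries and at 4.45 to 15.1 in tumors. It was thus at least 2.95-fold higher than a floor of 3 reads per naive library (adjusted p = 0.0414). Myc was called in no fit that left out a library: it missed the threshold without naive library 1 or 2, without tumor library 1, 2, 3, 4 or 7 and without tumor libraries 2 and 3, and without tumor library 5 or 6 it did not pass the filter on low values. Nor was it called with no filter, at a pseudocount of 5 or by limma-voom (adjusted p over these fits 0.058 to 0.365). Of the MAP kinase phosphatases and feedback regulators 1 of 20 tested members rose and 4 fell (median log2 change −0.33, with 7, 1 and 4 called without naive library 1, without naive library 2 and by limma-voom). The phosphatase Dusp4 had 2.9 and 0 in naive and 4.3 to 43.4 (median 23.2) in tumor libraries (3.396 ± 0.79, adjusted p = 0.0294), opposite to Dusp1, and Rgs2, which restrains G protein signalling, had 2204 and 2658 in naive and 459 to 850.0 (median 723) in tumor libraries (−1.86 ± 0.29, adjusted p = 0.00475). Its relative Rgs1 had 748 and 1151 in naive and 149.7 to 329.5 (median 228) in tumor libraries (−2.01 ± 0.33, adjusted p = 0.00625). Rgs18, a further relative, had 136 and 299 in naive and 28.7 to 66.7 (median 43.3) in tumor libraries (−2.16 ± 0.404, adjusted p = 0.0115). Of the nuclear receptor, glucocorticoid and AHR targets 0 of 24 tested members rose and 5 fell (median log2 change −0.61, with 6, 0 and 3 called without naive library 1, without naive library 2 and by limma-voom). Tsc22d3 (GILZ), a glucocorticoid target, had 691 and 971 in naive and 182 to 331 (median 234) in tumor libraries (−1.77 ± 0.302, adjusted p = 0.00676), and Tiparp, a target of the aryl hydrocarbon receptor, had 724 and 597 in naive and 85.3 to 219 (median 170.3) in tumor libraries (−2.11 ± 0.34, adjusted p = 0.0054). The circadian repressor Per2 had 62.6 and 146 in naive and 4.64 to 25.7 (median 14.3) in tumor libraries (−2.696 ± 0.61, adjusted p = 0.0262). Per1, its paralog, had 1109 and 664 in naive and 284 to 457 (median 373) in tumor libraries (−1.22 ± 0.29, adjusted p = 0.0316). Groups did not overlap for these 4 genes. Sgk1, a glucocorticoid-induced kinase and the most abundant member, had 1849 and 7121 in naive and 1135 to 2222 (median 1849) in tumor libraries (log2 change −1.05, not called), with naive library 2 far above library 1. After removal of naive library 1, Per1 (−0.85) was not called (adjusted p = 0.15) and the log2 changes of Per2 and Dusp4 moved to −3.3 and 4.38. Once naive library 2 was removed, Tiparp, Tsc22d3, Per2, Per1, Klf2, Dusp4, Rgs2, Rgs1 and Rgs18 (−2.25, −1.53, −2.09, −1.58, −2.44, 2.41, −1.72, −1.703 and −1.597) were not called (adjusted p = 0.0515 to 0.383). Nor was a call made for Dusp4 without tumor library 1 or 4 (3.21 to 3.34) and Per1 without tumor library 3, 4, 6 or 7 (−1.22 to −1.15), with adjusted p = 0.0502 to 0.0576. With both tumor libraries 2 and 3 removed, Per1 and Dusp4 (−1.19 and 3.42) were not called (adjusted p = 0.0612 to 0.0655). limma-voom did not call Per1 and Dusp4 (adjusted p = 0.0935 to 0.505), and edgeR did not call Dusp4 (adjusted p = 0.057).

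Interferon response genes rose without exception among those called. Of the list 18 of 36 tested members rose and 0 fell (median log2 change 2.38, with 13, 5 and 4 called without naive library 1, without naive library 2 and by limma-voom), and all 36 had a log2 change above 0 (0.21 to 4.54). Of the 36, 28 had tumor libraries on 1 side of both naive libraries, against 17.1% of all genes tested. Ifit1, an antiviral RNA-binding protein, had 23.8 and 25.4 normalised reads in the naive libraries and 104 to 460.2 (median 218) in the tumor libraries (3.12 ± 0.43), and Ifit3b had 1.16 and 4.83 in naive and 21.8 to 57.3 (median 34.3) in tumor libraries (3.26 ± 0.53). Ifit3b and Ifit3 are near-identical, so reads may be split between them. Bst2 (tetherin), which holds budding viruses at the membrane, had 40.02 and 14.5 in naive and 44.01 to 92.5 (median 63.9) in tumor libraries (log2 change 1.29, not called). The macrophage list moved in the same direction: 4 of 11 tested members rose and 0 fell (median log2 change 1.53, with 4, 0 and 1 called without naive library 1, without naive library 2 and by limma-voom). Its most abundant member, the lipid carrier Apoe, had 566 and 328 in naive and 1007 to 2625 (median 1527) in tumor libraries (1.93 ± 0.38), and the lysozyme Lyz2 had 43.5 and 35.02 in naive and 115 to 246 (median 151) in tumor libraries (1.995 ± 0.37). The complement chain C1qb had 292 and 176 in naive and 494 to 1719 (median 1062) in tumor libraries (2.1 ± 0.43, adjusted p = 0.0176). C1qc, another chain, had 96.3 and 53.1 in naive and 149 to 423 (median 322) in tumor libraries (1.94 ± 0.42, adjusted p = 0.0217). The part of macrophage transcripts in the interferon values was not tested. In the fit without naive library 1, the log2 change of Ifit3b moved to 2.54. Omitting naive library 2, Lyz2, Apoe, C1qb and C1qc (1.84, 1.54, 1.74 and 1.52) were not called (adjusted p = 0.145 to 0.304) and the log2 change of Ifit3b moved to 3.97. With limma-voom, Lyz2, C1qb, C1qc and Ifit3b were not called (adjusted p = 0.0549 to 0.203). Ifit1 missed the threshold without naive library 2 under the looser filter (adjusted p = 0.0511).

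Among the tumor libraries themselves some genes differed far more than between the groups. These are descriptions with no test. The granule gene Prg2, the major basic protein, had the highest mean of the eosinophil markers over the 9 libraries. It had 1031 and 1014 normalised reads in the naive libraries, where Ccr3 was higher, at 2613 and 4154. In the tumor libraries Prg2 had 1159 to 32323 (median 1761), highest in library 4. Epx, eosinophil peroxidase, had 3.48 and 7.25 in naive and 0 to 999 (median 66.4) in tumor libraries, again highest in library 4 and at 0 in libraries 3 and 7. The granule ribonuclease Ear6 had 66.7 and 118 in naive and 149.8 to 2391 (median 251) in tumor libraries, and its near-identical relative Ear1 had 0 and 10.9 in naive and 2.76 to 599 (median 44.5) in tumor libraries. Ear2, of the same family, had 0 and 1.21 in naive and 0.690 to 161 (median 15.3) in tumor libraries. All 5 peaked in tumor library 4, which also had the largest sum of eosinophil markers (10745 CPM against 1252 to 3975 in the other tumor libraries), while its Siglecf value of 611 was the highest of the tumor libraries and below both naive ones. Prg3, another granule protein, had 13.9 and 0 in naive and 16.8 to 574 (median 61.4) in tumor libraries (log2 change 4.16, adjusted p = 0.0774).

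Other variable genes are known from other tissues or cells. Elane, neutrophil elastase made by precursors, was at 0 in both naive libraries and at 417, 852 and 146 in tumor libraries 5, 6 and 7, and at 0.69 or below in libraries 1 to 4. H19, an imprinted noncoding RNA, ran the other way, with 267 to 457 in tumor libraries 1 to 4 and 2.15 or below in libraries 5 to 7, beside 1.74 and 51.9 in the naive libraries. Tumor libraries 1 to 4 and 5 to 7 were thus separated by both genes. Ctrb1, a pancreatic chymotrypsinogen, had 1745 in tumor library 5 and 168 or less in the others, and the pancreatic lipase gene Pnliprp2 had 4.06 and 25.4 in naive and 0 to 364 (median 80.2) in tumor libraries. The zinc transporter Slc30a2 had 4.64 and 18.1 in naive and 0 to 315 (median 121) in tumor libraries. The mast cell protease Mcpt1 had 2.9 and 31.4 in naive and 0 to 549.9 (median 24.8) in tumor libraries, with libraries 1 and 4 high, as for its relative Mcpt2, with 0.580 and 12.1 in naive and 0.730 to 503 (median 24.8) in tumor libraries. Cnfn, a protein of cornified epithelium, had 1.74 and 0 in naive and 0.690 to 1181 (median 66.7) in tumor libraries, highest in libraries 5 and 7. In a principal component analysis of the 9 libraries the first component (24.6% of variance) put the naive libraries at −61.0 and −119 and the tumor libraries at −4.16 to 65.1. The second component (22.4%) put tumor libraries 1, 2 and 3 at −56.1, −62.0 and −60.5 and libraries 5 and 6 at 45.3 and 90.6.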

How the data were processed

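RNA of 9 samples of sorted eosinophils, 7 tumor and 2 naive, was read with CEL-Seq. The authors deposited a table of normalised read signal with 50600 entries, in 2 decimals. Per the submitters' processing notes, the build was GRCm38.p5 and the tools include the counter HTSeq 0.6.1, the aligner TopHat2 2.1.0 beside Bowtie2 2.2.6, DESeq2 1.14.1, and for read quality Trim Galore and FastQC 0.11.5. Neither the way the 3 technical replicates were combined nor the strandedness of counting is stated in the sources used here. Reads of near-identical genes (Ear1, Ear2 and Ear6, Ifit3 and Ifit3b, Hspa1a and Hspa1b, the Stfa and Mcpt families) may be split between copies, and antisense partners cannot be told apart.

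Dividing each value by the step of 1 read gave whole reads, within 0.1 read, for 100% of 166557 non-zero values. The recovered total was 1978466 to 8520874 reads per library. There were 27 entries with a bare number as name, and 181 entries shared 90 repeated names. They stayed in the fits where they passed the filter, and were left out of the gene lists and the matching of names. Gene names matched GENCODE M21 for 94.3%. The CEL-Seq reads carry no molecular identifiers in these files, so intervals and floors cover counting error only.

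Tumor and naive libraries were compared with limma 3.58.1 (R 4.3.3; eBayes with trend, two-sided, Benjamini-Hochberg adjustment over all genes tested) on log2(normalised value + 1), for genes reaching 10 in at least 2 libraries. A fold change is on this scale and understates the change of low genes. Single sums were compared by exact permutation over 36 splits. Alternatives used edgeR 4.0.16, DESeq2 1.42.0 and limma-voom, other pseudocounts, filters and scalings, and fits without each library. The limma fit, not the alternatives, was tested on simulated data. Other computation used Python 3.11.15, scipy 1.17.1 and pandas 2.3.3. The members, the comparison and 35 gene lists (10 of cell types and 25 of pathways, 834 genes) were chosen with earlier results of these data known.

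Genes named are, in each direction, the 12 largest changes among those called with each library left out and the 8 with the largest difference in reads. To these come up to 4 called members per list and direction with the smallest p, the most abundant member of each list and the eosinophil markers. The 10 genes of largest spread over the tumor libraries with a mean of at least 100 were added. For each motif came the gene with the smallest p. It was taken from genes called with each library left out and called list members, outside chromosome 18. Further genes called with each library left out were chosen after their values were seen. 1 gene that this rule names is not reported here.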

Additional observations from a re-analysis of the deposited data

Results flagged for a closer look

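In 6 genes 1 tumor library stood apart from the other 6, on the scale of log2(normalised reads + 1). There the gap to the nearest over the whole range was above Dixon's 95% critical value for 7 samples. The values printed below are normalised reads, on which these ratios differ and other genes would be flagged. Chance flags about 1 in 20 groups, and 189 genes were screened, so on the log2 scale the 6 are fewer than chance alone would give. Cd44 was at 2337.4 normalised reads in tumor library 3 and at 4165 to 6441 in the others. Slc2a3 was at 432.69 in tumor library 2 and at 531 to 595 in the others. Trbc2, a T cell receptor constant segment, was at 216.67 in tumor library 7 and at 39.4 to 79.2 in the others. Tumor library 5 was lowest for the remaining genes: Tspan9, a tetraspanin, was at 0.73 there and at 86.0 to 396 in the others. Krt14 was at 32.08 in it, against 133 to 215, and Plet1 at 55.4, against 108 to 129.8.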

How the results depend on the processing

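The 601 called genes (314 higher, 287 lower, 136 list members) depended most on the naive libraries. Leaving out 1 library at a time gave 93 to 953 called genes, 72 to 554 higher, 21 to 399 lower and 42 to 152 list members; the lowest counts came without naive library 2, and the highest count of genes without naive library 1. Without tumor library 1, 185 genes were lower. DESeq2 called 1386 genes (709 higher, 677 lower, 230 list members), and limma-voom 227 (43 higher, 184 lower, 51 list members). By edgeR with TMM 209 genes were higher. Tumor and naive libraries share the numbers 1 and 2 in the labels, and same-numbered deviations correlated at 0.128 and 0.124 over 2 pairs. The labels do not say what a number marks, and the numbers were not taken as a pairing. With the replicate number as a block 1130 genes were called, 767 higher. That contrast rested on libraries 1 and 2 of each group. Tumor libraries with a number that no naive library shared added nothing to it. The total stayed within 1.5 times at pseudocounts of 0.5 (596) and 5 (586), without a filter (476), with a filter at 50 (676), with TMM-scaled CPM (591), with mitochondrial genes removed (600), and without tumor libraries 2 and 3 (517). Of 144 named called genes, 75 were not called without naive library 2, 72 by limma-voom, 24 without naive library 1, 19 without tumor library 1, 19 with no filter, 13 with the block, 9 without tumor libraries 2 and 3, and 8 by edgeR; no direction was reversed in any of these fits. Of the 65 genes called with each library left out, 61 and 45 were called with 2 other gene filters chosen after seeing the data. The lack of reversed directions was largely set by the choice of genes and adds no support. For 598 of the 601 called genes the groups did not overlap, and leaving out libraries could not reverse those. With 2 naive libraries and as few as 1978466 reads in a library, changes of genes with few reads have wide intervals.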
